A study of Mus musculus with 9 samples.

Results

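Complement is a cascade of plasma proteins that marks microbes, dying cells and debris for uptake, and 9 mouse genes of it were followed here, C1qa, C1qb, C1qc, C1ra, C2, C3, C4b, Cfb and Cfp. The members are the probes that carry 1 of these gene names on the array, which gave 11 probes, with 2 each for C3 and C1ra and 1 for each other gene. They stand among 24451 genes named on the array, of which 18539 were tested, and 7 of the 9 members were among those tested. RNA came from peritoneal macrophages of male mice, sorted by flow cytometry as CD45+F4/80+ cells, with 3 arrays in each of 3 groups. Group Ctrl had been kept in culture alone for 24 h. Group T had been cultured for 24 h with CT-26, an established mouse colon carcinoma line, and came from the lower chamber of a Transwell, a well divided by a porous membrane. Group M holds the macrophages that had migrated in such a co-culture and were taken from the upper chamber, and how long that co-culture ran was not stated in what was read here. The cell type label attaches the word for migratory cells to the T samples, whereas titles, descriptions and protocol attach it to M, and the groups follow the titles. No genetic change is given for any group.

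C1q, built from the products of C1qa, C1qb and C1qc, recognises antibody complexes and dying cells, and the proteases C1r and C1s that ride on it cleave C4 and C2 to start the classical pathway. C3 is the protein on which all routes of activation converge, and its fragments tag targets for uptake or attract leukocytes. Factor B (Cfb) pairs with C3b in the alternative pathway, and properdin (Cfp) holds that enzyme together. Tissue macrophages are a known local source of several of these proteins, C1q among them, while the liver makes most of the C3 in plasma.

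Sequences of C3 and C1ra are shown here. The printed probes are the second probe of each gene, whereas the main differences of both genes rest on their brighter probes. The first pair are 60-base probes, as the array files give them, for the second C3 probe, at chr17:57343678-57343737 on the minus strand of mouse build mm9, and the second C1ra probe, at chr6:124472674-124472733 on the plus strand. Exon and intron annotation of that build was not used here.
C3 probe A_55_P2038525: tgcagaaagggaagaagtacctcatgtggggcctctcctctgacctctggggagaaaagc
C1ra probe A_55_P2015363: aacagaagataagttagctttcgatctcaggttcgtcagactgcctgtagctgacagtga
The RefSeq promoter table of build GRCm38.p6 held 5 of the 9 members (C1qb, C1qc, C1ra, C3 and Cfp). The 250 bases before the start of the genes for C3 (chr17:57228137-57228386, minus strand) and C1ra (chr6:124512371-124512620, plus strand) are printed because both genes were highest in M. Capitals mark a match to the C/EBP-like motif TTGCNNAA.
C3 promoter: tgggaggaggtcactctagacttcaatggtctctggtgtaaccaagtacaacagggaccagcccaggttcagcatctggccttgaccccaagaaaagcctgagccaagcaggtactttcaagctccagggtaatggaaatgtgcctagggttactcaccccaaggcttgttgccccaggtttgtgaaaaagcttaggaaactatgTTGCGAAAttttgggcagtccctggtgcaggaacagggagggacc
C1ra promoter: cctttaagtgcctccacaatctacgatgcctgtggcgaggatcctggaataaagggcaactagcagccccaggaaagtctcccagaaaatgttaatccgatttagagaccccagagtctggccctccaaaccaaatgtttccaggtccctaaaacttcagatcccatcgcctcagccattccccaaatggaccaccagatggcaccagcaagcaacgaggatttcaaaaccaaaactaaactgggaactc
Both strands were searched for this motif and for a STAT-like TTCNNNGAA, an interferon-stimulated response element core, an AP-1-like TGANTCA and an NF-kB-like motif. The C3 promoter held the C/EBP-like letters from 45 to 38 bases before the start, as did 9.56% of 32851 promoters of the same length. An NF-kB-like match stood in the C1qc promoter, as in 7.25% of all promoters. The STAT-like motif (7.02% of promoters), the interferon core (2.98%) and the AP-1-like motif (6.75%) had no match in the 5 promoters. A match describes letters only.

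Levels are log2 of the processed signal minus the array's 75th percentile, so a level of 0 equals the 75th percentile of that array and 1 unit is a doubling. Probes well above background made up 70.0% to 78.7% of probes on the Ctrl arrays, 66.2% to 72.3% on T and 60.5% to 66.6% on M, and replicate spots of a probe scattered most on M1 (19.7%) and M3 (26.6%). Ctrl and M were read on 1 slide in 1 scan, and T on another, so an effect of T cannot be told apart from one of the slide, whereas M minus Ctrl lies within 1 slide. Of 10 macrophage markers, 9 were well above background on every array, and Timd4 was on none. Their summed level, in multiples of the array's 75th percentile, was 170 to 218 in Ctrl, 127 to 180 in T and 156 to 221 in M. Of the 9 tested, 2 rose and 0 fell in T minus Ctrl (limma, adjusted p under 0.05), against 17.5% and 27.4% of all tested genes. In M minus Ctrl 3 rose and 0 fell, against 12.2% and 11.1%. In M minus T 3 rose and 1 fell, against 14.6% and 10.8%. Adgre1 read 0.137, 0.410 and 0.997 in Ctrl, 0.455, 0.721 and 0.662 in T, and 3.28, 3.32 and 3.52 in M. In these bulk samples, fewer cells of a type and less RNA per cell cannot be told apart.

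Among the members, C3 and C4b RNA was higher and C1qa, C1ra and C2 RNA lower in T than in Ctrl. In M, C3, C4b and C1ra were above Ctrl and C1qa below. Between M and T, C3 and C1ra were higher in M. Of the 7 tested members, 2 rose, 3 fell and 2 did not pass the test in T minus Ctrl (limma, Benjamini-Hochberg adjusted p under 0.05), where 17.5% of all tested genes were called higher and 27.4% lower. In M minus Ctrl, 3 rose, 1 fell and 3 did not pass, against 12.2% of all genes higher and 11.1% lower. In M minus T, 2 rose, 0 fell (and 0 at an unadjusted p under 0.05) and 5 did not pass, against 14.6% higher and 10.8% lower. The median difference over the 7 members was -0.80 in T minus Ctrl, 0.09 in M minus Ctrl and 0.67 in M minus T, beside -0.14, -0.09 and 0.11 over all tested genes. Centring arrays on their median moved the median of all genes to 0.28, 0.21 and -0.01, and the share of calls in T minus Ctrl that were higher from 39.0% to 65.8%. The called differences of the members kept their direction under every scaling tried. Neither comparison with Ctrl is independent of the other, since both use the same 3 Ctrl arrays.

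**Figure D1:**
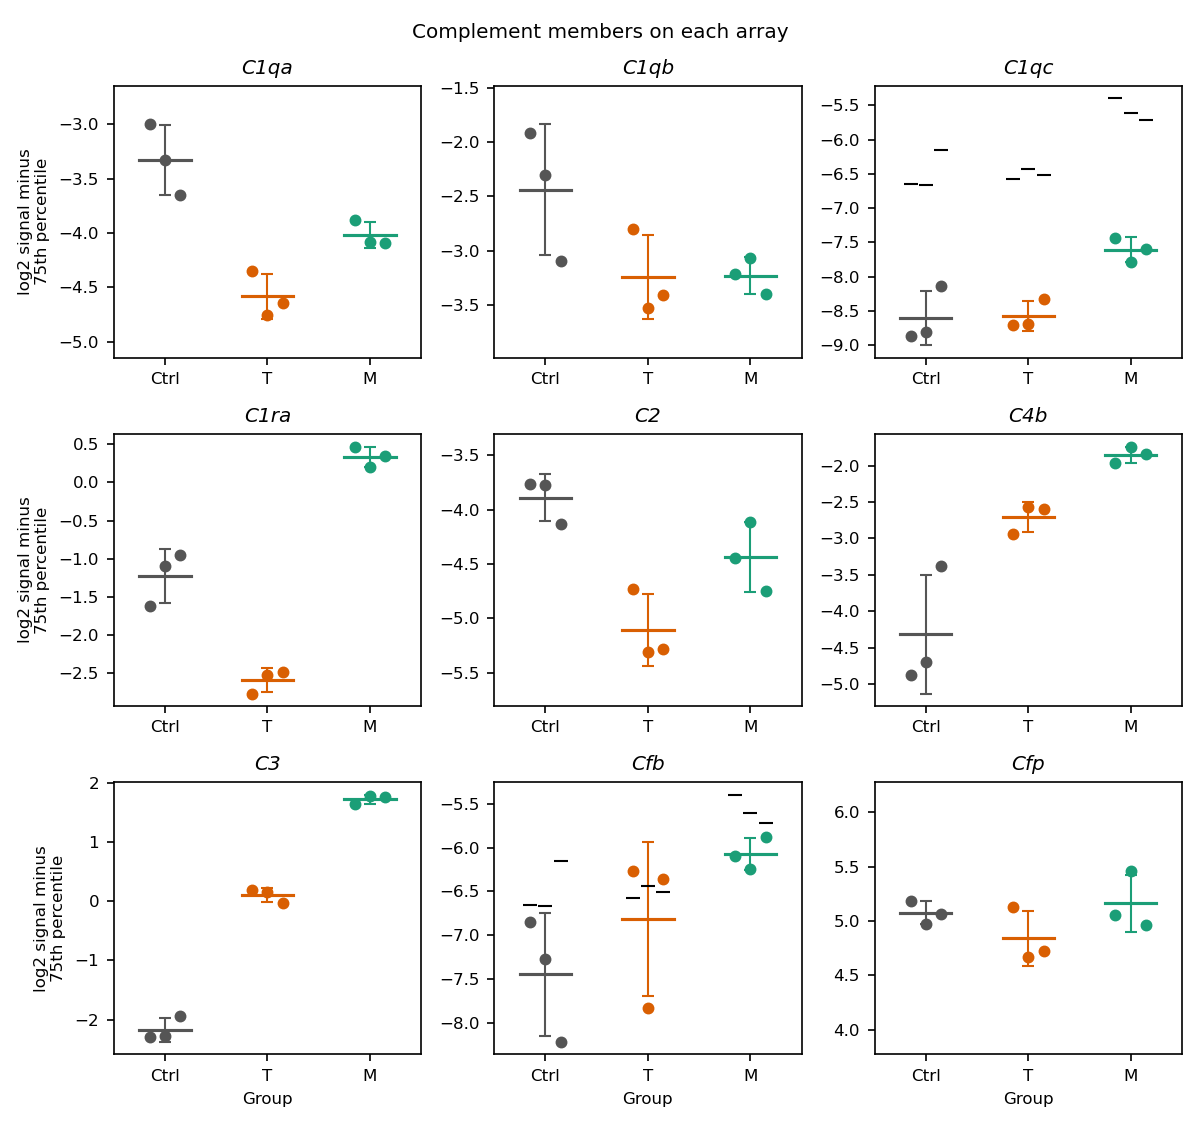
Log2 level (vertical axis, log2 signal minus the array's 75th percentile) of each of the 9 members on each array of Ctrl, T and M, with points for arrays, long bars for the group mean and error bars for the SD (n = 3); short black dashes in the C1qc and Cfb panels mark each array's lowest level well above background. C3 climbs from Ctrl through T to M, C1ra falls in T and is highest in M, and C1qc lies below the dashes on every array.

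C3 was the member with the largest difference from Ctrl in either co-culture group. Its brighter probe stood at -2.30, -2.28 and -1.94 on Ctrl1 to Ctrl3, at 0.19, 0.15 and -0.02 on T1 to T3, and at 1.64, 1.77 and 1.75 on M1 to M3. Every M array was above every T array, and every T array above every Ctrl array. The level was 4.85-fold higher in T than in Ctrl (log2 difference 2.28 ± 0.17, SE, n = 3 per group, adjusted p = 1.03e-05 with limma). It was 14.9-fold higher in M than in Ctrl (3.89 ± 0.17, adjusted p = 2.80e-07) and 3.07-fold higher in M than in T (1.62 ± 0.17, adjusted p = 9.07e-05). The second C3 probe, whose sequence is printed above, gave 6.37-fold, 21.3-fold and 3.34-fold for the same comparisons. It read -2.50, -2.33 and -2.65 in Ctrl, 0.13, 0.28 and 0.13 in T, and 1.86, 1.90 and 1.99 in M, so both probes put the 9 arrays in the same order of groups. After outlier spots were left out, 9 or 10 spots of the brighter probe remained on each array. These spots varied by 5.23% to 6.60% on 8 arrays and by 27.5% on M3. The C3 calls held in all alternatives but 1, the deposited value table, where the second probe was the brighter one and M minus T was 0.83 (adjusted p = 0.457). With that table's T2 column left out, the difference was 1.79 (adjusted p = 0.000380).

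C1ra, which encodes the C1r protease, moved in opposite directions in the co-culture groups. Its brighter probe read -1.62, -1.10 and -0.95 on the Ctrl arrays, -2.77, -2.52 and -2.48 on T, and 0.47, 0.20 and 0.34 on M. The 3 groups did not overlap, with T lowest and M highest. The level was 2.58-fold lower in T than in Ctrl (-1.37 ± 0.21, SE, n = 3 per group, adjusted p = 0.000846 with limma) and 2.95-fold higher in M than in Ctrl (1.56 ± 0.21, adjusted p = 0.000558). M exceeded T by 7.59-fold (2.92 ± 0.21, adjusted p = 8.04e-06), the largest difference of any tested member between these groups. The second C1ra probe, printed above, read -3.0, -3.35 and -2.76 in Ctrl, -4.87, -4.62 and -4.79 in T, and -1.66, -1.51 and -2.30 in M. It gave 3.31-fold lower, 2.31-fold higher and 7.66-fold higher, the same directions as the first. In the deposited value table, the difference of T from Ctrl was -0.89 and was not called (adjusted p = 0.104), and it was -1.40 (adjusted p = 0.00448) without that table's T2 column. C1rb, the neighbouring copy of the gene, has a probe of its own that was at best 44.7% identical to a C1ra probe, over 47 overlapping bases. No probe was compared with the transcript of the other gene, so signal shared between C1ra and C1rb was not tested. C1rb was 2.01-fold lower in T than in Ctrl (adjusted p = 0.00842) and 2.80-fold higher in M than in T (adjusted p = 0.00165), while M minus Ctrl was 0.48 (adjusted p = 0.158).

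**Figure D2:**
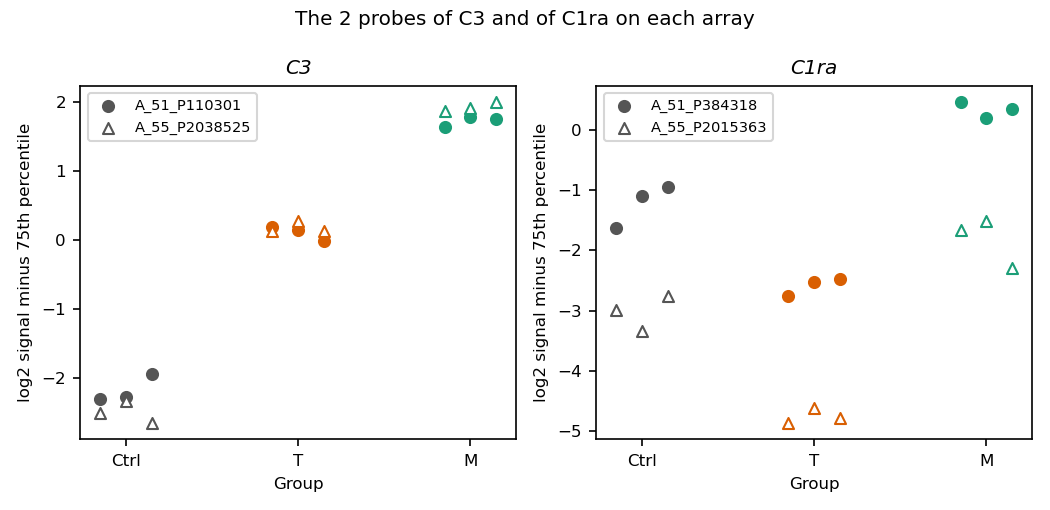
Log2 level (vertical axis, log2 signal minus the array's 75th percentile) of both probes of C3 and of C1ra on each array of Ctrl, T and M, with filled circles for the brighter probe and open triangles for the other. For each gene both probes give the same order of groups, Ctrl below T below M for C3 and T below Ctrl below M for C1ra.

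C4b encodes C4, which C1s cleaves and which then binds to the target surface. The probe also lists the accession of C4a, a near copy of the gene, so signal from C4a cannot be told apart. It read -4.87, -4.69 and -3.38 on the Ctrl arrays, -2.94, -2.57 and -2.60 on T, and -1.96, -1.74 and -1.85 on M. The groups did not overlap, although Ctrl3 lay well above the other Ctrl arrays and closer to T. C4b was 3.05-fold higher in T than in Ctrl (1.61 ± 0.34, SE, n = 3 per group, adjusted p = 0.00454 with limma) and 5.52-fold higher in M than in Ctrl (2.46 ± 0.34, adjusted p = 0.000748). M minus T was 0.85 ± 0.34 (adjusted p = 0.0918) and did not pass. It passed without Ctrl3 (adjusted p = 0.00351), and with only the 6 arrays of M and T (adjusted p = 0.00621).

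The 3 C1q chains are encoded side by side on chromosome 4, where their probes span 15.9 kb of mm9. C1qa, the A chain, read -3.0, -3.33 and -3.65 on the Ctrl arrays, -4.35, -4.76 and -4.65 on T, and -3.88, -4.09 and -4.09 on M. Ctrl was highest and T lowest, without overlap. C1qa was 2.39-fold lower in T than in Ctrl (-1.26 ± 0.20, SE, n = 3 per group, adjusted p = 0.00129 with limma) and 1.61-fold lower in M than in Ctrl (-0.69 ± 0.20, adjusted p = 0.0376). The second of these calls was lost in 16 of 23 alternatives, among them quantile normalization, the fit within the slide that holds both groups (adjusted p = 0.0754), and the fits without Ctrl1, Ctrl2, T2, T3 or any 1 M array (adjusted p = 0.0560 to 0.131). M minus T was 0.57 ± 0.20 (adjusted p = 0.0675). C1qb, the B chain, read -1.92, -2.31 and -3.10 in Ctrl, -2.80, -3.53 and -3.40 in T, and -3.22, -3.07 and -3.40 in M, and the groups overlapped because Ctrl3 fell within the range of T and M. Its difference from Ctrl was -0.80 ± 0.30 in T (adjusted p = 0.0529) and -0.79 ± 0.30 in M (adjusted p = 0.0807), neither called, and M minus T was 0.01 ± 0.30 (adjusted p = 0.979). With the replicate number as a block the C1qb difference of T from Ctrl passed (adjusted p = 0.0291). Without Ctrl3 it was -1.13 (adjusted p = 0.00466) in T and -1.12 (adjusted p = 0.00681) in M, and without T1 it was -1.03 in T (adjusted p = 0.0306).

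C1qc, the C chain, was not well above background on any of the 9 arrays, although 9 or 10 spots of its probe remained without outliers. Its values lay between -8.86 and -7.43, each below the lowest level well above background of its array, and it was not tested.

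C2, the protease that C4b binds to form the classical C3 convertase, read -3.76, -3.77 and -4.14 on the Ctrl arrays, -4.73, -5.31 and -5.29 on T, and -4.45, -4.11 and -4.75 on M. T lay below every Ctrl array, and M overlapped both. C2 was 2.33-fold lower in T than in Ctrl (-1.22 ± 0.23, SE, n = 3 per group, adjusted p = 0.00288 with limma). M minus Ctrl was -0.55 ± 0.23 (adjusted p = 0.105) and M minus T 0.67 ± 0.23 (adjusted p = 0.0593), neither called, though the latter passed without Ctrl3 (adjusted p = 0.0426) or without T1 (adjusted p = 0.0326). The falls of C1qa and C2 in T concern dim probes, and calls in that direction were frequent among dim genes. In the dimmest of 5 equal classes of tested genes, which holds C2, 54.3% were called lower in T, with a median difference of -0.92. In the next class, which holds C1qa, C1qb and C4b, 40.6% were called lower and the median was -0.44. The middle class, which holds C1ra and C3, had 19.8% called lower and a median of 0.08. The part of brightness in the results for C1qa and C2 was not tested.

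Cfb and Cfp belong to the alternative pathway. Cfb was well above background only on T1, at -6.27, so it was not tested. It read -6.85, -7.27 and -8.22 on the Ctrl arrays, -7.83 and -6.36 on T2 and T3, and -6.10, -6.25 and -5.88 on M, where the lowest level well above background was -5.40 to -5.72. Properdin (Cfp) was bright on every array, at 5.19, 4.98 and 5.07 in Ctrl, 5.13, 4.67 and 4.73 in T, and 5.06, 5.46 and 4.97 in M. All 3 groups overlapped. Its differences were -0.23 ± 0.20 in T minus Ctrl (adjusted p = 0.356 with limma), 0.09 ± 0.20 in M minus Ctrl (adjusted p = 0.758) and 0.32 ± 0.20 in M minus T (adjusted p = 0.266). None of them was called. No Cfp spot was saturated.

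**Figure D3:**
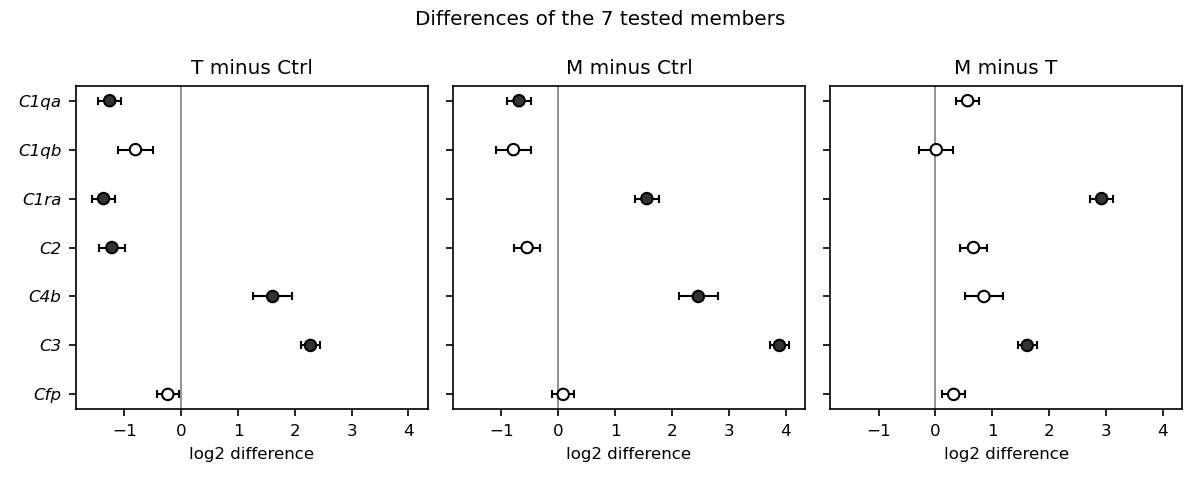
Log2 difference (horizontal axis) with its SE (bars, moderated SE of the fit over 9 arrays) of the 7 tested members in the comparisons of T with Ctrl, M with Ctrl and M with T, with filled points where the adjusted p was under 0.05. C3 and C4b lie right of 0 in both comparisons with Ctrl, C1ra changes side between them, and Cfp stays near 0.

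C2, Cfb, C4b and C3 all lie on chromosome 17, and the probes of C4b and C2 span 134 kb of mm9. The neighbours C4b and C2 differed in direction in T, where C4b rose and C2 fell.

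Markers of other cell types were read beside these results. The summed level of 8 neutrophil markers was 0.465 to 0.939 in Ctrl, 0.870 to 1.09 in T and 2.65 to 2.70 in M. S100a8 alone made up most of that sum in M. Of the 6 tested, 1 rose and 2 fell in T minus Ctrl, against 17.5% and 27.4% of all tested genes. In M minus Ctrl, 2 rose and 0 fell, against 12.2% and 11.1%. Elane had another order, at -1.44, -2.29 and -4.18 in Ctrl, -5.12, -5.08 and -5.42 in T, and -3.58, -3.74 and -4.34 in M. S100a8, chosen here after its values were seen, read -3.97, -4.07 and -3.44 in Ctrl, -1.01, -0.45 and -0.83 in T, and 1.15, 1.09 and 1.18 in M, while the defining neutrophil marker Ly6g was not well above background on any Ctrl or M array. The 13 epithelial or carcinoma markers summed to 2.44 to 4.43 in Ctrl, 2.59 to 2.99 in T and 2.18 to 2.84 in M. Of the 10 tested, 2 rose and 5 fell in T minus Ctrl, against 17.5% and 27.4% of all tested genes. In M minus Ctrl, 0 rose and 1 fell, against 12.2% and 11.1%. Krt19 read -4.18, -4.49 and -5.29 in Ctrl, -1.17, -1.03 and -0.87 in T, and -5.48, -5.11 and -5.45 in M. Elf3 read -3.57, -3.46 and -3.11 in Ctrl, -2.09, -1.79 and -1.87 in T, and -3.55, -3.49 and -3.36 in M. Other markers of this list were lower in T. Epcam read -4.02, -4.26 and -4.53 in Ctrl, -5.72, -6.52 and -5.38 in T, and -4.92, -4.44 and -4.49 in M. Ocln read -3.63, -3.95 and -4.41 in Ctrl, -5.11, -5.81 and -6.11 in T, and -4.63, -4.29 and -4.47 in M. The 10 fibroblast or mesothelium markers summed to 0.187 to 0.285 in Ctrl, 0.196 to 0.214 in T and 0.169 to 0.257 in M, with Dcn, Lum, Pdgfra, Upk3b and Wt1 not above background on any array. The sums for dendritic cell markers (5 genes) were 0.625 to 1.29, 0.50 to 0.633 and 0.523 to 0.678, for mast cells (5 genes) 0.144 to 0.177, 0.314 to 0.340 and 0.0984 to 0.135, for B cells (5 genes) 0.458 to 0.761, 0.505 to 0.546 and 0.292 to 0.379, and for T or NK cells (6 genes) 0.260 to 0.844, 0.141 to 0.187 and 0.230 to 0.276. The part of these cells in the members' results was not tested.

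The rest of the complement system was covered by a list of 51 genes on the array, of which 35 were tested. In T minus Ctrl, 8 rose (22.9%, against 17.5% of all tested genes) and 13 fell (37.1%, against 27.4%), with a median of -0.16. In M minus Ctrl, 9 rose (25.7%, against 12.2%) and 6 fell (17.1%, against 11.1%), with a median of -0.13. In M minus T, 8 rose (22.9%, against 14.6%) and 3 fell (8.57%, against 10.8%), with a median of 0.33. Of the 35 genes, 20 lay in the 2 dimmest of the 5 brightness classes, where 54.3% and 40.6% of all genes were called lower in T. Centring arrays on their median turned the first of these medians to 0.27 and the second to 0.17, and changed the counts to 13 up and 9 down, and 12 up and 2 down. Among the 16 untested genes were factor I (Cfi), Vsig4 and Cd55.

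The list of receptors had 10 tested genes and is wider than receptors of complement fragments, since it holds Cr1l, C1qbp and Cd93. Of these 10 genes, 5 rose and 0 fell in T minus Ctrl, where 17.5% of all genes were higher and 27.4% lower. In M minus Ctrl, 5 rose and 0 fell, where 12.2% of all genes were higher and 11.1% lower. In each comparison 1 lower gene (Itgam) had an unadjusted limma p under 0.05. Itgax, the alpha chain of complement receptor 4, stayed at background on all 3 Ctrl arrays and was at least 4.38-fold higher in T (adjusted p = 9.04e-05 with limma) and at least 5.88-fold higher in M (adjusted p = 3.14e-05). C3ar1, the receptor of the C3 fragment C3a, was 4.62-fold higher in T than in Ctrl (adjusted p = 0.00356). Among the genes of this list that rose in M minus Ctrl, the call was lost in 10 of 23 alternatives for C3ar1 and in 12 of 23 for C5ar2. C5ar1, a receptor of the C5 fragment C5a, was 8.17-fold higher in M than in Ctrl (adjusted p = 1.59e-05) and 3.97-fold higher in M than in T (adjusted p = 0.000269), although only 2 of 3 Ctrl arrays were above background. C5ar2, the second C5a receptor, was 1.97-fold lower in M than in T (adjusted p = 0.00595), and Cd93, a lectin-like surface protein once described as a C1q receptor, was 1.49-fold higher there (adjusted p = 0.0451). The Cd93 call was lost in 13 of 23 alternatives. The integrin chains Itgam and Itgb2 passed no comparison, at -0.68 and -0.14 in T minus Ctrl and -0.67 and 0.19 in M minus Ctrl. Itgam in T minus Ctrl passed in 6 of 23 alternatives, and with the mean of all its probes its sign turned, to 0.33 in T minus Ctrl and a called 0.50 in M minus Ctrl.

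Of 10 tested classical and terminal components, 1 rose and 7 fell in T minus Ctrl, against 17.5% and 27.4% of all tested genes. Their median was -1.17, and 8 of the 10 lay in the 2 dimmest brightness classes. C1rl, a C1r-like protease, rose by 0.66 ± 0.19 (adjusted p = 0.0173, lost in 3 of 23 alternatives), while C8a fell by 1.73 ± 0.45 (adjusted p = 0.0123) and C1s2 by 1.62 ± 0.31 (adjusted p = 0.00295). The mean of all its probes did not call C1s2 (adjusted p = 0.515). With quantile normalization or median scaling, 2 rose and 1 fell in M minus Ctrl. In the main fit 1 rose and 3 fell there, against 12.2% and 11.1% of all tested genes. C8g, the gamma chain of C8, rose by 1.22 ± 0.19 (adjusted p = 0.00176), and C9 was at least 2.53-fold lower (adjusted p = 0.0387, no M array above background, lost in 7 of 22 alternatives). C8a was well above background on only 1 of 3 M arrays, M2, and its groups overlapped. Its M minus Ctrl call (adjusted p = 0.0485) was lost in 15 of 22 alternatives, with a difference of -0.15 when M2 alone stood for M. In M minus T, where 14.6% of all tested genes were higher and 10.8% lower, C1rb and C8g rose. The rise of C8g was 0.76 ± 0.19 (adjusted p = 0.0162 with limma, lost in 6 of 23 alternatives). In the same comparison 0 of 10 fell (1 at an unadjusted limma p under 0.05, C1rl).

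Lectin pathway and pattern recognition genes gave 1 higher and 4 lower of 7 tested in T minus Ctrl, against 17.5% and 27.4% of all tested genes. The collectin Colec12 rose by 0.89 ± 0.27 (adjusted p = 0.0242, lost in 5 of 23 alternatives), and mannose-binding lectin A (Mbl1) fell by 1.56 ± 0.30 (adjusted p = 0.00304) and serum amyloid P (Apcs) by 1.43 ± 0.29 (adjusted p = 0.00362). In M minus Ctrl, 2 rose, Colec12 by 1.11 ± 0.27 (adjusted p = 0.0194, lost in 6 of 23 alternatives) and the ficolin Fcna by 1.05 ± 0.18 (adjusted p = 0.00319), and Apcs was at least 1.57-fold lower (adjusted p = 0.0160, lost in 5 of 22 alternatives). Fcna and the protease Masp2 were higher in M than in T, by 0.72 ± 0.18 (adjusted p = 0.0169) and 0.55 ± 0.17 (adjusted p = 0.0400), and 0 of 7 fell (0 also at an unadjusted limma p under 0.05). Of all tested genes, 12.2% were higher and 11.1% lower in M minus Ctrl, and 14.6% and 10.8% in M minus T. The Fcna call in M minus T was lost in 7 and the Masp2 call in 15 of 23 alternatives. With median scaling 0 of the 7 were called higher there.

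Factor D (Cfd), the protease that cleaves factor B, was 1.79-fold higher in T than in Ctrl (adjusted p = 0.00464) and 1.92-fold lower in M than in T (adjusted p = 0.00381, lost in 3 of 23 alternatives). Cpn2, a subunit of the carboxypeptidase that trims C3a and C5a, was 2.65-fold lower in T (adjusted p = 0.000382) and 1.70-fold lower in M (adjusted p = 0.0181) than in Ctrl. It was 1.56-fold higher in M than in T (adjusted p = 0.0283). Of 22 alternatives, 8 lost its M minus Ctrl call and 10 its M minus T call, quantile, median and normexp values among both.

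Of 6 tested regulators, 0 rose (1 at an unadjusted limma p under 0.05, Cd46) and 1 fell in T minus Ctrl. Of all tested genes, 17.5% rose and 27.4% fell there. In each of the other comparisons 1 regulator rose and 1 fell, which is 16.7% each way. The shares over all tested genes were 12.2% and 11.1% in M minus Ctrl, and 14.6% and 10.8% in M minus T. With quantile normalization or median scaling, 2 regulators rose and 0 fell in both comparisons with Ctrl. Cd59a, which blocks the membrane attack complex, was 2.38-fold higher in M than in Ctrl (adjusted p = 0.000779) and 2.06-fold higher in M than in T (adjusted p = 0.00191). Cd55b fell by 0.97 ± 0.34 in T (adjusted p = 0.0422), and Serping1, the C1 inhibitor, fell by 1.08 ± 0.32 in M (adjusted p = 0.0395), and each of these calls was lost in 16 of 23 alternatives. Cd46 was at least 1.60-fold lower in M than in T (adjusted p = 0.0232, lost in 8 of 22 alternatives).

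**Figure D4:**
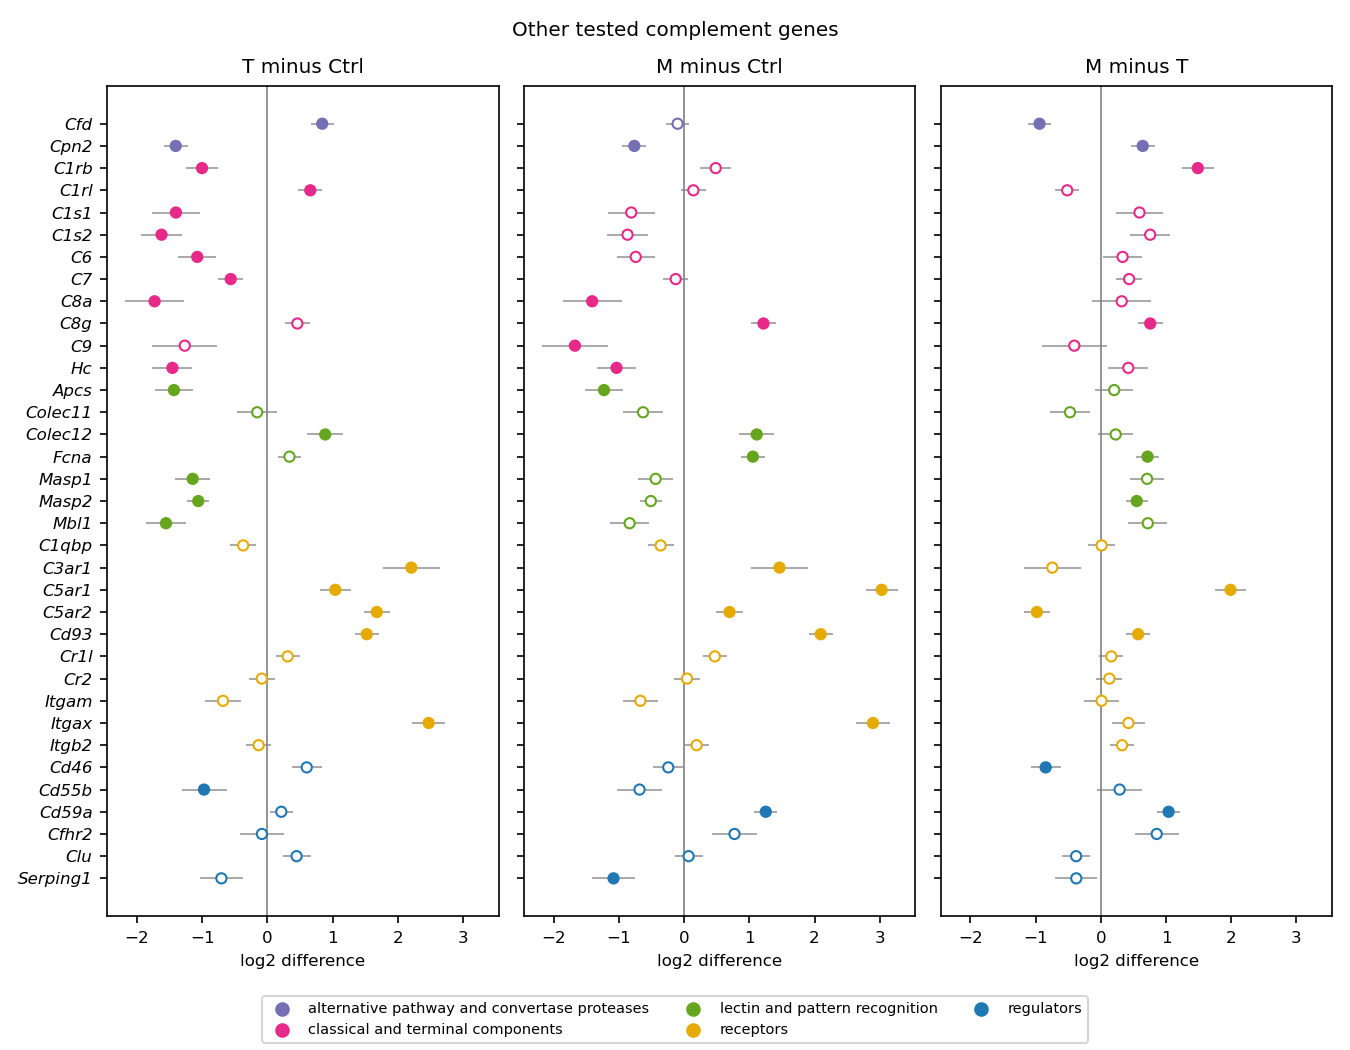
Log2 difference (horizontal axis) with its SE (bars) of the 35 other tested complement genes in the comparisons of T with Ctrl, M with Ctrl and M with T, coloured by sub-list, with filled points where the adjusted p was under 0.05. Itgax, C3ar1, C5ar1, C5ar2 and Cd93 lie right of 0 in both comparisons with Ctrl. In T minus Ctrl, 7 of 10 classical and terminal components are filled left of 0, where 27.4% of all tested genes were called lower.

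The tested genes nearest to each called member were found by the root mean square difference of levels over the 9 arrays, after each gene's own mean was subtracted. Nearest to C3 were Cela1 (0.188) and Gm4610 (0.210), whose M minus Ctrl differences were 3.54 and 4.23. C1ra lay nearest to Ext1 (0.304) and Calhm6 (0.306), and C4b to Lhx5 (0.240) and Trnp1 (0.246). C1qa lay nearest to Nlrp4e (0.101) and Scd4 (0.103), and C2 to Hbb-y (0.0898) and Gm3238 (0.102).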

How the data were processed

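RNA of sorted mouse peritoneal macrophages was read on 9 Agilent 1-colour arrays, 3 in each of Ctrl, T and M, grouped by their titles. Since no label names separate cultures or animals within a group, the p-values cover the spread between these arrays alone, and that spread may be technical. The members and lists were chosen with earlier results of these data known.

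Per the submitters' processing notes, the authors used Agilent Feature Extraction 10.7.3.1. The deposited scanner files give the spots' processed intensity after background subtraction and before any scaling between arrays, per the file headers. The authors' deposited table of values holds Ctrl1 and M1 to M3 as linear intensity (medians 215, 195, 246 and 219) and Ctrl2, Ctrl3 and T1 to T3 as log2 values (medians -3.39, -3.71, -3.76, -3.93 and -4.03). Allowing 0.001 log2 units and a constant shift, 6 columns matched the scanner file of their array, M1 and M2 matched each other's file, and T2 matched no file, so its scale and centring are inferred. No column is a ratio.

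Control spots and outlier spots (147 to 299 per array) were left out, spots of a probe were averaged, and log2 was taken and the 75th percentile subtracted. Accessions named 26762 of 55681 probes through a GRCm38.p6 gene table, 6488 kept the array's name and 22431 had none. Testing required a probe to be well above background on every array of some group, and the brightest probe stood for its gene. Group means were fitted to all 9 arrays with limma 3.58.1 (lmFit and eBayes) in R 4.3.3, with Benjamini-Hochberg adjustment over 18539 genes at 0.05. SEs are the moderated SEs of this fit. A bound written "at least N-fold" compares the mean of the brighter group with a floor for the dimmer one, which takes on each array the lowest signal well above background, or the probe's own signal where that is higher. The procedure was tested on simulated data. The number of arrays limits the precision.

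The text names all members, the 2 largest rises and falls among called genes of each list of other complement genes in each comparison, and the 2 nearest genes of each called member. Others named were chosen after their values were seen. Deviations of same-numbered arrays from their group means correlated at 0.55, 0.12 and 0.38 between Ctrl and T, and at -0.27 to 0.02 between M and the others. The main fit did not use these numbers as pairs, and a block for them was only among the alternatives. A pairing of Ctrl and T would come from the data, not from a label. Alternatives changed the scaling, background correction, values, filter, probe choice, arrays, block, weights and prior.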

Additional observations from a re-analysis of the deposited data

Results flagged for a closer look

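The T2 column of the deposited value table equals no scanner file, so the main comparisons, which rest on the scanner files, do not use it, and it entered only the alternative with the whole deposited table. In it C3 stood at 2.63 on 1 probe and 3.02 on the other, above every other column of the table, where the highest were 1.77 and 1.99. The scanner file of T2 gave 0.15 and 0.28 for the same probes. Cfb stood at -3.36 in that column, against -8.22 to -6.85 in the Ctrl columns and -7.83 in the scanner file of T2. No label or header read here says where the column came from.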

How the results depend on the processing

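All differences of called members kept their direction under 23 alternatives, and the calls of C3 and C4b against Ctrl, of C1qa and C2 in T minus Ctrl and of C1ra in M against either group held under all of them. Members lower in M than in Ctrl (main count 1) numbered 0 with quantile normalization, median scaling, normexp, the deposited table with or without its T2 column, only the arrays compared, a replicate block on only those arrays, the trended prior, or without M1 and M3, 2 with the replicate block on 9 arrays and 3 with array weights, and 0 to 2 with each array left out. Members higher in M than in T (2) numbered 4 with normexp or only the arrays compared, 5 with array weights, 1 with the deposited table, and 2 to 5 with each array left out, 5 being without Ctrl3. Among the other complement genes, those higher in M than in T (8) numbered 3 with median scaling, 1 and 4 with the deposited table with and without T2, 18 with no filter, 14 with weights, 5 with the trended prior and 3 to 9 with each array left out. Those lower in M than in T (3) numbered 1 with normexp, 0 with the deposited table or without M1 and M3, 5 with only the arrays compared and 6 with weights. Those higher in T than in Ctrl (8) numbered 13 with median scaling and 14 with weights. Those lower in M than in Ctrl (6) numbered 2 with quantile, median or normexp values, with only probes above background on 9 arrays or only the arrays compared, 0 without M1 and M3, 13 with weights, and 0 to 13 with each array left out, 0 without Ctrl1 or M3 and 13 without Ctrl3. Calls over all genes shifted under these settings too. Over all genes, calls higher in M than in T went from 2715 to 1622 with median scaling and 5373 with weights. With no filter they numbered 5341 of 24395 tested genes, against 18539 tested in the main fit. Calls lower in M than in Ctrl went from 2064 to 4977 with weights and 3941 without Ctrl3. The causes were not tested. The replicate block passed C1qb in M minus Ctrl as well (adjusted p = 0.0488) and changed no other member's call on 9 arrays. The share of all calls that were higher moved from 52.2% to 66.2% (quantile) and 74.4% (median) in M minus Ctrl, from 39.0% to 52.4% (quantile) in T minus Ctrl, and from 57.5% to 44.9% (median) in M minus T. Calls over all genes in M minus Ctrl were 2254 higher and 2064 lower, and 1414 and 793 within the slide both groups share. A slide block could not be fitted for T, which has a slide of its own, and on 9 arrays it would leave M minus Ctrl as in the main fit. The alternatives without M1 and M3, without the deposited T2 column and with the block on 6 arrays were chosen after seeing the data. Signal over background limits C1qc and Cfb on nearly all arrays, Itgax in Ctrl, C9, Apcs and Cd46 in M, and C8a and Masp1 in T and M.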
